A study of Mus musculus with 12 samples.

Results

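Notch1, Notch2, Notch3 and Notch4, the ligand genes Jag1 and Dll4, and the target genes Hey1, Hey2, Heyl and Hes1 were followed in the RNA of whole mouse aortae. They are a named set of 4 receptors, 2 ligands and 4 targets of the Notch pathway, drawn up with earlier results of these data known. Of these 10 genes, 9 had transcripts in the table, out of 12287 genes that could be formed from it. Dll4, an endothelial ligand, had no listed transcript and is not analysed here. The samples were 6 libraries of C57BL/6 mice that had been fasted for 24 h and 6 libraries of control C57BL/6 mice. All mice were 7 weeks old, and the labels name no genetic change and do not say what the controls were fed. Fat had been dissected from the aortae before RNA extraction. The labels do not say whether a library was 1 animal or a pool, so the p-values rest on the spread among the libraries, which may in part be technical.

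Notch receptors are membrane proteins that a ligand on a neighbouring cell activates. ADAM10 and then gamma-secretase cut the bound receptor, and the freed intracellular domain joins RBPJ and a Mastermind protein on DNA to switch on target genes, among them the repressors of the Hes and Hey families. In arteries, Notch1 and Notch4 are known mainly from the endothelium and Notch3 from smooth muscle. Notch2 and Jag1 are also made by smooth muscle, where Jag1 and Notch3 are linked to muscle differentiation.

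Levels are in FPKM, that is fragments per kilobase of transcript length relative to the fragments of the whole library, as computed by the authors. Because FPKM is per length, levels of different genes can be set side by side. How many reads each library had is unknown. Differences are the fasted minus the control mean of log2(FPKM + 1), a scale that understates the change of low genes, and they are given ± SE with p-values from limma adjusted over all 12063 genes tested. Folds are ratios of mean FPKM. The first principal component, with 32.8% of the variance, separated the groups, and fasted replicate 3 stood apart on the second, which held 12.8%. The aorta label was checked against markers of its cell types. Smooth muscle markers summed to 9100 to 10300 FPKM in fasted and 9130 to 11300 FPKM in control libraries, and none of 7 lymphocyte markers had a listed transcript. Erythroid markers varied widely, from 375 to 2480 FPKM in fasted and from 476 to 2820 FPKM in control libraries. Mesothelial markers summed to 0.495 to 29.9 FPKM in fasted and 0.885 to 10.5 FPKM in control libraries. The part of such cells in other levels was not tested. In such bulk RNA, fewer cells of a type and less RNA per cell cannot be told apart.

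In fasted aortae the receptors moved in different directions. Notch4, Notch1 and Notch2 rose, Notch3 fell, and the ligand gene Jag1 rose slightly. The mean level of the endothelial markers was also higher in fasted aortae, with 3 of 11 markers higher by the test (all genes: 13.8%). With that mean as a covariate, Notch1, Notch3 and Notch4 had smaller differences and no longer passed, while Notch2 passed. Jag1 did not pass either, with a larger difference and a wider SE. None of the 4 measured Hes and Hey genes passed the test. Of the 9 genes, 4 were higher and 1 was lower in the fasted group at an adjusted p under 0.05. This is 55.6% of them, against 31.7% of all genes tested (13.8% higher and 17.9% lower). The 2 groups did not overlap in 3 of the 9 genes, Notch2, Notch3 and Notch4, against 17.0% of all genes tested (6.78% higher and 10.2% lower). The median difference of the 9 genes was 0.21, against -0.024 over all genes tested. All 9 genes passed the filter on low values, and their lowest value in any library was 0.728 FPKM.

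**Figure D1:**
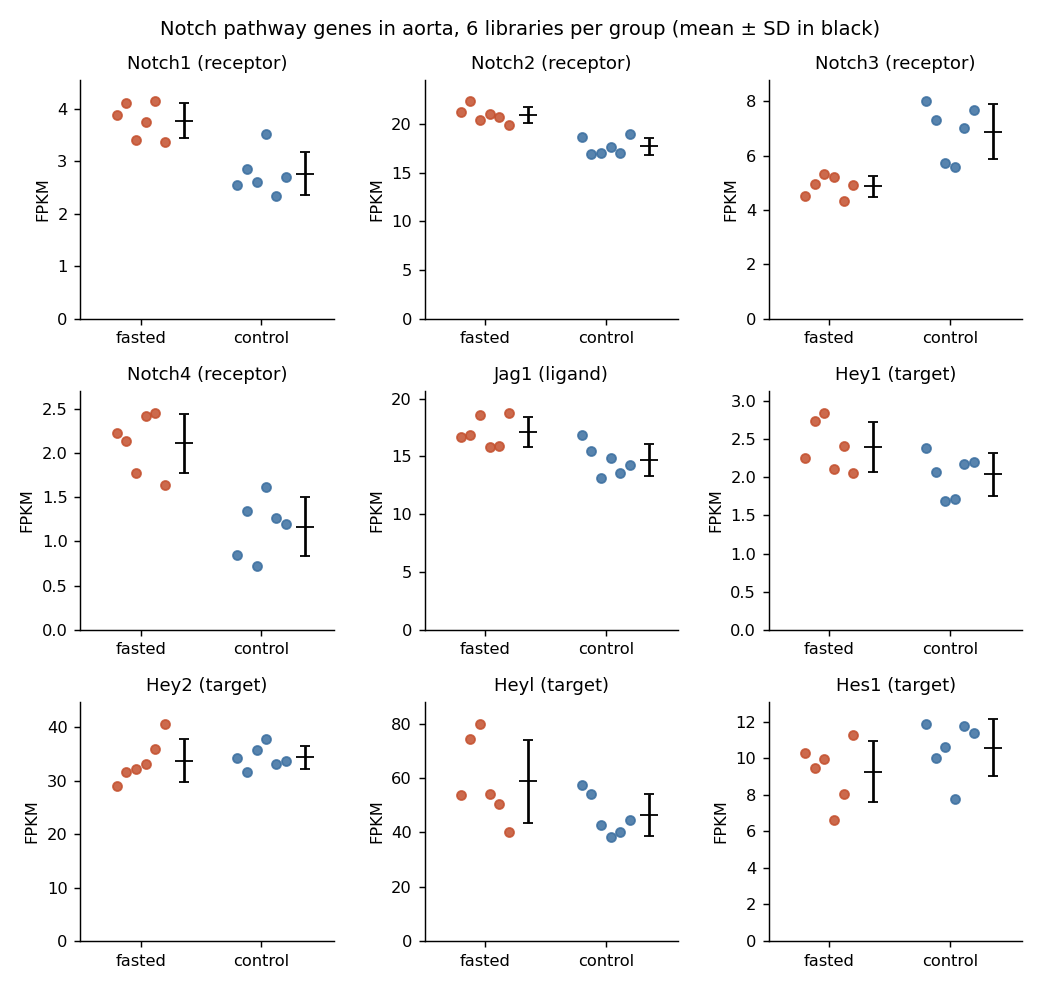
FPKM of the 9 measured genes in each library, with fasted libraries left of control libraries in each panel; points are libraries and bars are means ± SD (n = 6 each), and each panel has its own axis from 0. Notch2 and Notch4 lie wholly above, and Notch3 wholly below, the control libraries, while the Hes and Hey genes overlap.

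Notch3 and Notch4 differed most in size and in opposite directions, and both lie on chromosome 17. Their RefSeq promoters on GRCm38.p6, given as the 250 bases before the start on the strand of the gene, are printed for that reason. They are at chr17:32166891-32167140 on the minus strand for Notch3 and at chr17:34564045-34564294 on the plus strand for Notch4.
Notch3: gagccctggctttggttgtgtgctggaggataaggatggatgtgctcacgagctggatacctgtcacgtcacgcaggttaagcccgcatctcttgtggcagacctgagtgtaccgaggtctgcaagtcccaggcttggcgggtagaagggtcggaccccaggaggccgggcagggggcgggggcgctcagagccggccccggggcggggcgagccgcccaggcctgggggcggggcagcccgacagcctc
Notch4: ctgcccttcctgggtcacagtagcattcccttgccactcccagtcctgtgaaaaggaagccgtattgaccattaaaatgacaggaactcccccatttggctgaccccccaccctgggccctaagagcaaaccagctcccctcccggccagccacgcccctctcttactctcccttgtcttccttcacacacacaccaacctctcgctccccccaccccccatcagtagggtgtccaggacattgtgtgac
The capitals used below mark a motif, and neither of these promoters held one of the 4 motifs searched on both strands (TGGGAA, the core of the RBPJ site, the E box CACGTG, the FoxO motif GTAAACA and the palindrome of the glucocorticoid receptor). The windows searched ran from 250 bases before to 50 bases after the start, in 32851 promoters. TGGGAA stood in 25.6% of all promoters, CACGTG in 7.15%, GTAAACA in 3.65% and the palindrome in 0.00913%. Of the 6 measured genes with a promoter entry (Notch1, Notch2, Notch3, Notch4, Jag1 and Hey2), 1 held TGGGAA and none held any of the other 3. No entry was at hand for Hey1, Heyl and Hes1.
The promoter with matches was that of Hey2, a target gene, and its 2 matches are shown in windows of 30 bases on the minus strand, at chr10:30842973-30843002 and chr10:30842769-30842798. The capitals are the RBPJ core, read as its reverse complement in the upstream window.
Hey2 upstream: tgcgcggtggcaTTCCCAcgcctctgccaa
Hey2 at the start: tgggctgcagcgTGGGAAagaacctccagg
A match shows only that the letters are there, and binding was not measured.

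Notch4, an endothelial receptor, had the largest difference of the 9 genes in the fit with the group alone. It had 1.64 FPKM in the lowest, 2.18 FPKM as the median and 2.46 FPKM in the highest fasted library, against 0.728, 1.24 and 1.62 FPKM in controls. The lowest fasted library thus lay just above the highest control, and the groups did not overlap. The means were 2.11 ± 0.337 FPKM in fasted and 1.17 ± 0.331 FPKM in control aortae (SD, n = 6 each), a ratio of 1.8. The log2 difference was 0.53 ± 0.11 (limma, adjusted p = 0.00313). With the endothelial marker covariate described below it was 0.23 ± 0.1 and did not pass (adjusted p = 0.135). The gene (ENSMUSG00000015468) spans chr17:34564268-34588503 on the plus strand of GRCm38, and its listed transcript has 30 exons.

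Notch1, the receptor of arterial endothelial identity, was at 3.37 FPKM in the lowest, 3.82 FPKM as the median and 4.14 FPKM in the highest fasted library, against 2.33, 2.65 and 3.52 FPKM in controls. Control replicate 4, with 3.52 FPKM, was alone in reaching the fasted range, and 4 of 6 fasted libraries lay above every control. The means were 3.77 ± 0.338 FPKM in fasted and 2.76 ± 0.408 FPKM in control aortae (SD, n = 6 each). On the log2 scale the difference was 0.35 ± 0.079 (limma, adjusted p = 0.00509). Notch1 (ENSMUSG00000026923) is at chr2:26457903-26516663 on the minus strand, and 34 exons make up its listed transcript. Its exons share 1068 and 414 bases with the opposite-strand genes 0610009E02Rik and Gm13568, which have no listed transcript. The sources used here do not say whether strand was used in counting, so their reads may not be told apart.

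Notch2 was the most abundant receptor. It had 19.9 FPKM in the lowest, 20.8 FPKM as the median and 22.3 FPKM in the highest fasted library, against 16.9, 17.3 and 19.0 FPKM in controls. The rise was small, yet every fasted library lay above every control. The means were 20.9 ± 0.827 FPKM in fasted and 17.7 ± 0.898 FPKM in control aortae (SD, n = 6 each), a ratio of 1.18. The log2 difference was 0.23 ± 0.045 (limma, adjusted p = 0.00191). Notch2 (ENSMUSG00000027878) lies at chr3:98013527-98150361 on the plus strand, has 34 exons in its listed transcript, and shares 541 exonic bases with the same-strand gene Gm42820, which has none listed.

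Notch3, the receptor best known from vascular smooth muscle, was the measured gene that fell. It had 4.33 FPKM in the lowest, 4.94 FPKM as the median and 5.32 FPKM in the highest fasted library, against 5.59, 7.17 and 8.0 FPKM in controls. Every fasted library lay below every control, although control replicates 3 and 4 came close with 5.75 and 5.59 FPKM. The means were 4.88 ± 0.387 FPKM in fasted and 6.89 ± 1.0 FPKM in control aortae (SD, n = 6 each), so the fasted mean was 0.708 times that of the controls. It thus fell by 0.42 ± 0.087 on the log2 scale (limma, adjusted p = 0.00292). Its gene (ENSMUSG00000038146) lies at chr17:32120820-32166852 on the minus strand with 33 exons in the listed transcript. It shares 488 exonic bases with the opposite-strand gene Gm17276, which has no listed transcript.

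Receptor RNA as a whole thus shifted in its make-up. The 4 receptors summed to 31.7 ± 1.26 FPKM in fasted and 28.5 ± 1.62 FPKM in control aortae. Notch2 made up 66.0% ± 0.767 of that sum in fasted and 62.1% ± 1.81 in control aortae. Its ranges of 64.8% to 66.7% in fasted and 59.5% to 65.2% in control libraries overlapped. Notch3 held 15.4% ± 1.4 in fasted and 24.1% ± 2.65 in control aortae (SD, n = 6 each), with ranges of 13.7% to 17.2% and 19.7% to 26.7% that did not meet. The ratio of Notch2 to Notch3 was 3.84 to 4.78 in fasted and 2.32 to 3.14 in control libraries. Notch1 accounted for 11.9% ± 0.775 in fasted and 9.7% ± 1.51 in control aortae, and Notch4 for 6.64% ± 0.931 in fasted and 4.11% ± 1.16 in control aortae. The ranges also overlapped for Notch1 (11.0% to 13.1% in fasted, 8.43% to 12.4% in control) and Notch4 (5.49% to 7.78% and 2.79% to 5.72%). These shares restate the levels above and were not tested.

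**Figure D2:**
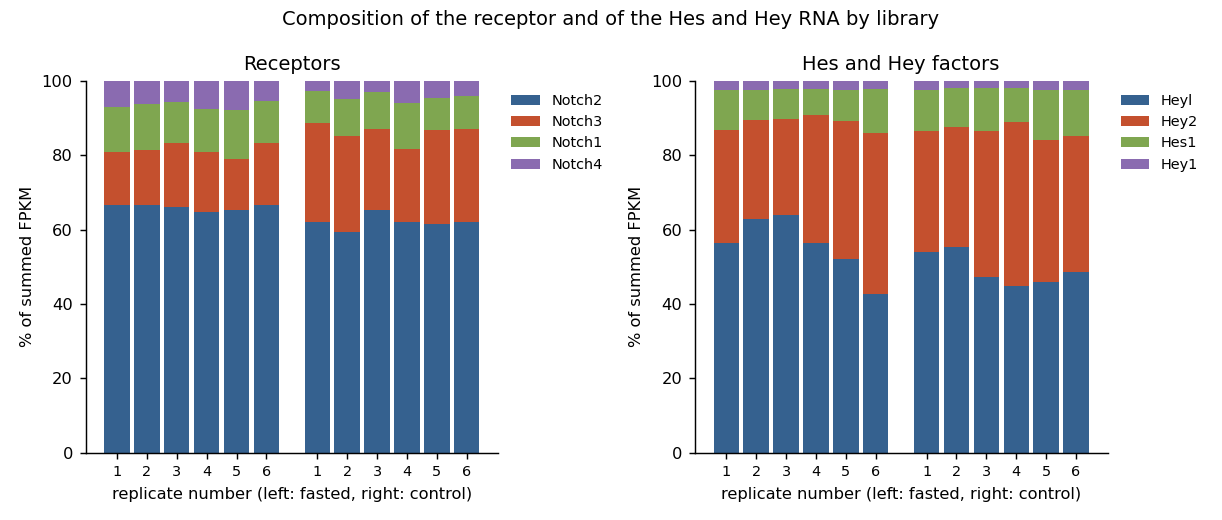
Share in percent of the summed FPKM of the 4 receptors and of the 4 Hes and Hey genes in each library, fasted libraries left of control libraries. Notch3 takes 13.7% to 17.2% of receptor RNA in fasted and 19.7% to 26.7% in control libraries, and Heyl and Hey2 take most of the Hes and Hey RNA in both groups.

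Jag1, a ligand made by endothelium and smooth muscle, was the measured ligand of the 2 named. It had 15.8 FPKM in the lowest, 16.8 FPKM as the median and 18.8 FPKM in the highest fasted library, against 13.1, 14.6 and 16.9 FPKM in controls. The groups overlapped, and fasted replicates 3 and 6 alone lay above all controls. The means were 17.1 ± 1.31 FPKM in fasted and 14.7 ± 1.37 FPKM in control aortae (SD, n = 6 each). On the log2 scale Jag1 differed by 0.21 ± 0.067 (limma, adjusted p = 0.032). This call was lost without any 1 of 6 libraries (fasted replicates 2, 3 and 6 and control replicates 3, 5 and 6), where the adjusted p was 0.0504 to 0.07. It was also lost with library weights (adjusted p = 0.0508) and in the test over 20599 transcripts (adjusted p = 0.0603), in which 16.2% of transcripts passed. Jag1 (ENSMUSG00000027276) is found at chr2:137081456-137116644 on the minus strand.

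The target genes encode basic helix-loop-helix repressors, and their levels overlapped between the groups. Heyl was the most abundant of the 9 genes and also varied most between fasted libraries. It had 40.2 FPKM in the lowest, 53.9 FPKM as the median and 80.0 FPKM in the highest fasted library, against 38.4, 43.7 and 57.4 FPKM in controls. Fasted replicates 2 and 3, with 74.3 and 80.0 FPKM, stood above all others, and the remaining fasted libraries lay within the control range. The means were 58.8 ± 15.2 FPKM in fasted and 46.2 ± 7.75 FPKM in control aortae (SD, n = 6 each). The log2 difference was 0.32 ± 0.16, with a 95% interval of -0.025 to 0.66 (limma, adjusted p = 0.146). Without fasted replicate 6, the lowest, the difference was 0.42 and passed the threshold (adjusted p = 0.0463), and without fasted replicates 2 and 3 together it was 0.11 (adjusted p = 0.557). Heyl (ENSMUSG00000032744) is at chr4:123233556-123249875 on the plus strand.

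Hey2 had 29.0 FPKM in the lowest, 32.7 FPKM as the median and 40.7 FPKM in the highest fasted library, against 31.7, 34.1 and 37.9 FPKM in controls. The fasted libraries spread to both sides of the control range. The means were 33.8 ± 4.05 FPKM in fasted and 34.4 ± 2.14 FPKM in control aortae (SD, n = 6 each). The log2 difference was -0.032 ± 0.073, with a 95% interval of -0.19 to 0.13 (limma, adjusted p = 0.78). Fasted replicates 6 and 5, which had the highest Hey2 of their group, also had the highest summed cardiac muscle markers, at 170.0 and 225 FPKM against 33.6 to 49.0 FPKM in the other fasted libraries and 23.6 to 47.0 FPKM in controls. Hey2 is also a gene of heart muscle, and the part of these markers in its level was not tested. Hey2 (ENSMUSG00000019789) is at chr10:30832359-30842801 on the minus strand.

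Hes1 had 6.61 FPKM in the lowest, 9.72 FPKM as the median and 11.3 FPKM in the highest fasted library, against 7.77, 11.0 and 11.9 FPKM in controls. Replicate 4 was the lowest library of each group. The means were 9.28 ± 1.68 FPKM in fasted and 10.6 ± 1.55 FPKM in control aortae (SD, n = 6 each), and the log2 difference was -0.18 ± 0.12, with a 95% interval of -0.44 to 0.09 (limma, adjusted p = 0.301). Without fasted replicate 4 it was -0.094 (adjusted p = 0.558), and with the endothelial marker covariate it turned to 0.15 ± 0.12 (adjusted p = 0.419). Hey1 was low, at 2.06 to 2.85 FPKM in fasted and 1.69 to 2.39 FPKM in control libraries. Its log2 difference was 0.16 ± 0.084, with a 95% interval of -0.019 to 0.34 (limma, adjusted p = 0.161). Hes1 (ENSMUSG00000022528) is at chr16:30064384-30067796 on the plus strand and Hey1 (ENSMUSG00000040289) at chr3:8663359-8667256 on the minus strand. A p above the threshold does not show that these 4 genes were alike in the groups. Their intervals allow a difference of Heyl as high as 0.66 and a difference of Hes1 as low as -0.44 on the log2(FPKM + 1) scale.

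By mean level the genes ran in 1 order in both groups, Heyl, Hey2, Notch2, Jag1, Hes1, Notch3, Notch1, Hey1 and Notch4, from high to low. In fasted aortae the ranges of neighbours overlapped for Heyl and Hey2 and for Hey1 and Notch4. In controls they overlapped for Hes1 and Notch3 and for Notch1 and Hey1. The Hes and Hey genes summed to 104 ± 13.7 FPKM in fasted and 93.3 ± 7.55 FPKM in control aortae (SD, n = 6 each). Heyl made up 55.7% ± 7.78 of this sum in fasted and 49.3% ± 4.39 in control aortae, and Hey2 33.0% ± 6.63 in fasted and 37.2% ± 4.48 in control aortae. Hes1 held 8.99% ± 1.95 in fasted and 11.3% ± 1.57 in control aortae, and Hey1 held 2.3% ± 0.112 in fasted and 2.19% ± 0.24 in control aortae.

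The mean level of the endothelial markers was higher in the fasted group, as Notch1 and Notch4 were, while Notch3 was lower. Most of the markers did not pass on their own. Of 11 in the table, out of 12 in the list, 3 were higher and none was lower in the fasted group. Of all genes tested, 13.8% were higher and 17.9% were lower. The 11 markers summed to 247 to 334 FPKM in fasted and 184 to 270 FPKM in control libraries, ranges that overlapped. The mean log2 level of these markers was 3.91 ± 0.14 in fasted and 3.64 ± 0.16 in control libraries (SD, n = 6 each). The defining marker Cdh5, the cadherin of endothelial junctions, lay at 12.3 to 17.6 FPKM in fasted and 10.9 to 19.1 FPKM in control libraries, with a log2 difference of 0.17 (limma, adjusted p = 0.315). With that mean as a covariate, 19.5% of all genes passed the test and 1 of the 9 genes did, Notch2, at 0.25 (adjusted p = 0.0182). The difference of Notch1 was then 0.17 ± 0.087 (adjusted p = 0.192), against 0.35 without the covariate, and that of Notch3 -0.27 ± 0.11 (adjusted p = 0.104), against -0.42. Jag1 was at 0.27 ± 0.093 in the same fit (adjusted p = 0.0617), against 0.21 ± 0.067 without the covariate. Its difference was thus larger and its SE wider. The covariate itself differed between the groups, so its share in these differences cannot be told apart from that of the fast.

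**Figure D3:**
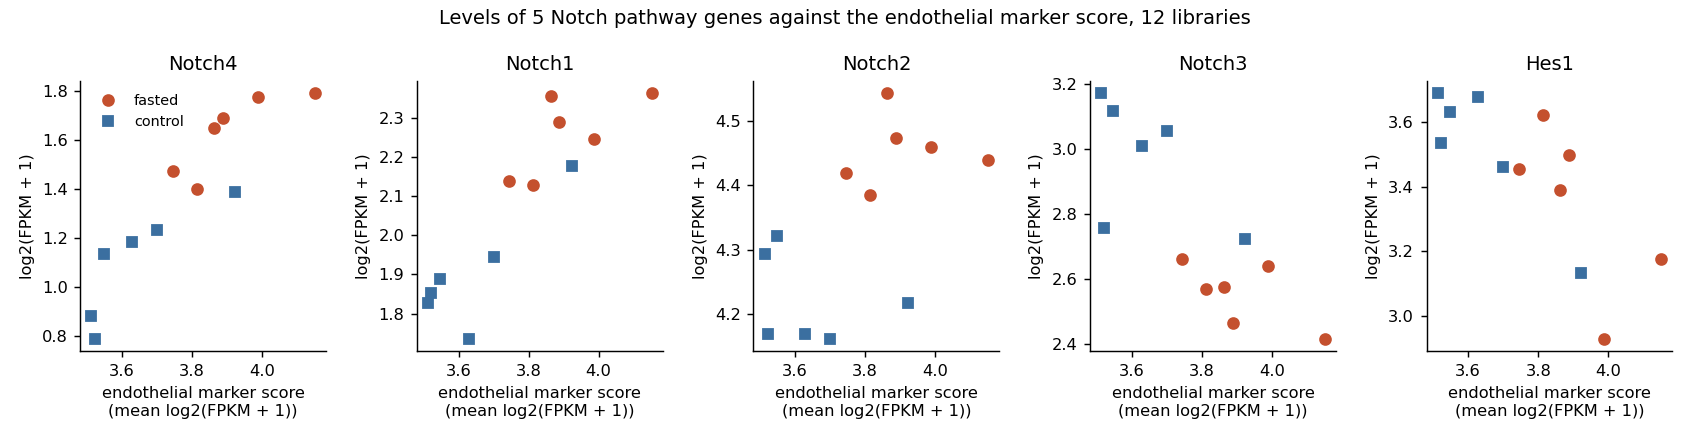
Level of Notch4, Notch1, Notch2, Notch3 and Hes1 as log2(FPKM + 1) against the mean log2(FPKM + 1) of 11 endothelial markers; each point is a library (6 fasted, 6 control). Notch4 and Notch1 are high where the markers are high, Hes1 and Notch3 are low there, and Notch2 separates the groups with little relation to the markers.

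Within the groups the receptors also parted. After each value was set against the mean of its group, Notch1 had a median Pearson r of 0.75 with 10 endothelial markers over the 12 libraries, all 10 above 0. Notch4 had a median r of 0.7, with 9 of 10 above 0. Hes1 had a median r of -0.73, with 0 of 10 above 0, and Notch3 -0.42. The other 5 genes were at -0.34 to 0.16. These are descriptions over libraries whose genes share depth and cell make-up. Among the 9 genes themselves, Hey1 and Heyl varied together (r = 0.78), as did Notch1 and Notch4 (r = 0.68) and Notch3 and Hey1 (r = 0.67). Notch1 and Hes1 varied oppositely (r = -0.68), and so did Notch4 and Hes1 (r = -0.66) and Hey2 and Heyl (r = -0.62).

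Some fat markers were also higher in the fasted group. For the marker counts below, 13.8% of all genes tested were higher and 17.9% were lower. White adipocyte markers summed to 133 to 263 FPKM in fasted and 85.1 to 119 FPKM in control libraries, with 3 of 7 higher and none lower. Their defining marker Adipoq was at 1.63 to 14.8 FPKM in fasted and 1.35 to 5.87 FPKM in control libraries and did not pass (log2 difference 0.72, limma, adjusted p = 0.164). Of 6 brown adipocyte markers 1 was higher, and they summed to 47.4 to 92.8 FPKM in fasted and 33.4 to 61.1 FPKM in control libraries, with Ucp1 at 0.305 to 15.8 FPKM in fasted and 0.13 to 6.52 FPKM in control libraries (log2 difference 1.48, limma, adjusted p = 0.115). With the white and brown marker means as covariates, 21.2% of all genes passed, and the 4 receptors did so. Notch1 was at 0.37 (adjusted p = 0.0351), Notch2 at 0.20 (adjusted p = 0.0352), Notch3 at -0.49 (adjusted p = 0.0137) and Notch4 at 0.52 (adjusted p = 0.0369). Jag1 was at 0.19 ± 0.091 and did not pass (adjusted p = 0.162), and Heyl was at 0.07 (adjusted p = 0.828). Smooth muscle markers differed little: 2 of 10 were higher and 1 was lower, and Myh11, smooth muscle myosin, had a log2 difference of -0.058 (limma, adjusted p = 0.437). Of 8 fibroblast markers, 3 were higher and 1 was lower. They summed to 1720 to 1920 FPKM in fasted and 1660 to 2050 FPKM in control libraries, and Pdgfra, their defining marker, rose by 0.29 (limma, adjusted p = 0.00518).

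**Figure D4:**
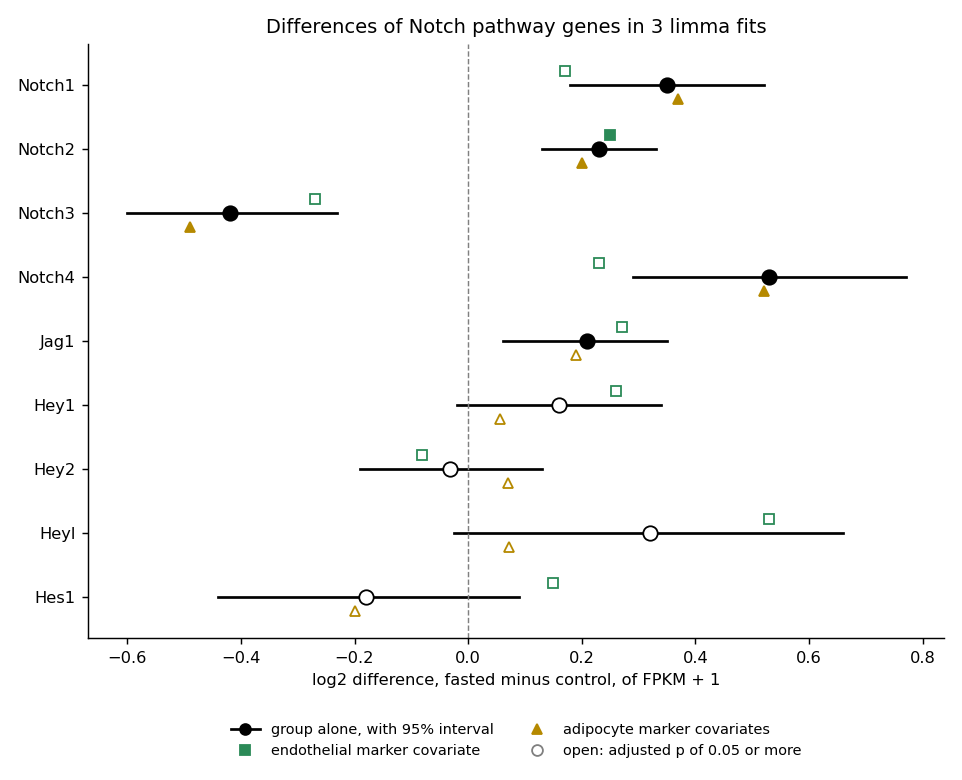
Log2 difference, fasted minus control, of the 9 genes on the log2(FPKM + 1) scale (n = 6 each) with the group alone (circle, with its 95% interval), with an endothelial marker covariate (square) and with adipocyte marker covariates (triangle); filled symbols have an adjusted p under 0.05. Notch2 is filled in all 3 fits, while Notch1, Notch3 and Notch4 are open with the endothelial covariate.

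Other pathway genes were read from 8 lists, of which 110 genes were tested. Of these 23 were higher and 16 were lower in the fasted group, 35.5% in all, against 31.7% of all genes tested. Among the other ligands none of 6 tested was higher and 3 were lower. Dner, a ligand-like gene of neurons, was at 0.243 ± 0.0653 FPKM in fasted and 0.998 ± 0.355 FPKM in control aortae (SD, n = 6 each). It passed the filter on low values through the controls alone, so its place among the 3 is set by that filter and is given as a description. The calls of the Delta-like ligand Dll1 (-0.24 ± 0.084, adjusted p = 0.0475) and of Mfap5, a microfibril protein that binds Jagged (-0.21 ± 0.075, adjusted p = 0.0482), were each lost in 10 of 12 fits without 1 library. They were also lost with median-of-ratios scaling, where the adjusted p was 0.0658 for Dll1 and 0.0705 for Mfap5. Neither passed with the endothelial covariate, where Dll1 was at -0.31 (adjusted p = 0.086) and Mfap5 at -0.25 (adjusted p = 0.131). With the adipocyte covariates Dll1 was at -0.23 (adjusted p = 0.197) and Mfap5 at -0.22 (adjusted p = 0.164). Jag2, a Jagged ligand, was at 0.586 ± 0.211 FPKM in fasted and 0.735 ± 0.132 FPKM in control aortae (SD, n = 6 each, adjusted p = 0.3).

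Of 11 genes for enzymes that glycosylate the receptors, 2 were higher and 6 lower (72.7%), against 31.7% of all genes tested. With the endothelial covariate 4 of the 11 passed, and 5 of 11 in the transcription complex. The median log2 difference of the glycosylation genes was -0.39, against -0.024 over all genes. Kdelc2, now named Poglut3, which adds glucose to receptor repeats, was at 19.9 ± 0.927 FPKM in fasted and 30.3 ± 1.12 FPKM in control aortae (SD, n = 6 each, log2 difference -0.58 ± 0.043, adjusted p = 1.79e-06). The xylosyltransferase genes Xxylt1 (-0.69 ± 0.064, adjusted p = 8.29e-06) and Gxylt2 (-0.39 ± 0.083, adjusted p = 0.00315) fell, as did the glucosyltransferase gene Poglut1 (-0.52 ± 0.1, adjusted p = 0.00155). Pofut1, which adds the fucose needed for ligand binding, fell by 0.41 (adjusted p = 0.00793), and with the endothelial covariate it was at -0.28 (adjusted p = 0.165). The groups did not overlap in 5 of the 11 genes, against 17.0% of all genes tested, and of these Mfng was higher and Kdelc2, Xxylt1, Poglut1 and Pofut1 were lower. The Fringe genes, which lengthen that fucose and tune the choice of ligand, were split. Lfng rose by 0.26 ± 0.078 (adjusted p = 0.0213) and Mfng by 0.27 ± 0.072 (adjusted p = 0.0124), and neither call held with either covariate fit. Lfng was at 0.16 ± 0.1 with the endothelial (adjusted p = 0.31) and 0.22 ± 0.11 with the adipocyte covariates (adjusted p = 0.18). Mfng was as large as before with the endothelial covariate, at 0.27 with a wider SE of 0.1 (adjusted p = 0.0862), and at 0.18 ± 0.091 with the adipocyte covariates (adjusted p = 0.19). Lfng also lost its call when fasted replicates 2 and 3 were left out together (adjusted p = 0.0844). Rfng, the other Fringe gene, fell by 0.64 (adjusted p = 0.0359). It falls outside the rule for named genes and was chosen after its values were seen. The 4 genes that passed with the endothelial covariate were Kdelc2, Xxylt1, Gxylt2 and Poglut1, so Rfng lost its call there.

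The cleavage genes stayed nearly without calls, with 1 of 10 higher and none lower. The gamma-secretase gene Ncstn did not pass, with a log2 difference of 0.012 (limma, adjusted p = 0.906). The metalloprotease gene Adam10 was at 17.3 ± 5.85 FPKM in fasted and 19.6 ± 1.04 FPKM in control aortae (SD, n = 6 each, adjusted p = 0.451), with fasted replicate 3 at 5.67 FPKM. Adam17, its relative, had an adjusted p of 0.938 and ranged from 0.969 to 12.3 FPKM in fasted and from 1.51 to 15.2 FPKM in control libraries. Aph1c rose by 0.44 ± 0.055 (limma, adjusted p = 8.62e-05). It also passed with the endothelial (0.43, adjusted p = 0.00337) and with the adipocyte covariates (0.47, adjusted p = 0.0021). Aph1c is a close copy of Aph1b, and whether reads were split between them was not tested.

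Of 11 genes of the transcription complex, 5 were higher and none was lower (45.5%), against 31.7% of all genes tested (13.8% higher). With the adipocyte covariates 3 of the 11 passed, as with the most abundant transcript alone, and 5 passed with the endothelial covariate. Rbpj, the DNA-binding partner, was at 26.9 ± 2.02 FPKM in fasted and 24.9 ± 1.51 FPKM in control aortae (SD, n = 6 each, adjusted p = 0.186). Of the Mastermind coactivator genes, Maml3 rose by 0.40 ± 0.071 (adjusted p = 0.00107) and Maml2 by 0.19 ± 0.06 (adjusted p = 0.0311, lost in 6 of 12 fits without 1 library), while Maml1 was at -0.011 (adjusted p = 0.924). Kat2b, an acetyltransferase, was at 28.1 ± 1.73 FPKM in fasted and 19.3 ± 0.987 FPKM in control aortae (SD, n = 6 each, log2 difference 0.52 ± 0.051, adjusted p = 1.39e-05). Of the Mediator kinase module, Med12 rose by 0.30 (adjusted p = 0.0013) and Cdk8 by 0.28 (adjusted p = 0.013). Neither held in its most abundant transcript alone, where Med12 was at -0.13 (adjusted p = 0.769) and Cdk8 at 0.24 (adjusted p = 0.0926).

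Of 16 corepressor genes tested, 3 were higher and 1 was lower (25.0%), against 31.7% of all genes tested. Ncor1, a nuclear receptor corepressor, rose by 0.18 (adjusted p = 0.00355), Cir1, which binds RBPJ, by 0.33 (adjusted p = 0.00462) and the Groucho gene Tle1 by 0.43 (adjusted p = 0.00438). Aes, a short relative of the Groucho genes, was at 43.0 ± 3.6 FPKM in fasted and 53.3 ± 4.21 FPKM in control aortae (SD, n = 6 each, adjusted p = 0.00384). Among 24 genes of endocytosis and turnover 4 were higher and none was lower (16.7%), against the same 31.7%. Epn2, an epsin of the ligand-sending cell, rose by 0.49 (adjusted p = 0.00377), which was 0.23 in its most abundant transcript alone (adjusted p = 0.509). The endocytic adaptor gene Eps15 rose by 0.25 (adjusted p = 0.004) and the ubiquitin ligase gene Dtx1 by 0.46 (adjusted p = 0.0159). Numb, an endocytic inhibitor of the receptors, rose by 0.21 (adjusted p = 0.0252), a call lost in 4 of 12 fits without 1 library. Fbxw7, which marks the intracellular domain for breakdown, was at -0.37 (adjusted p = 0.182).

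Among 12 other targets and relatives of the Hes and Hey genes, 3 were higher and 1 was lower. This is 33.3%, close to the 31.7% of all genes tested. Nrarp, a feedback inhibitor and direct target, was at 2.87 ± 0.661 FPKM in fasted and 2.48 ± 0.317 FPKM in control aortae (SD, n = 6 each, adjusted p = 0.345). The cell cycle genes Ccnd1 and Myc, targets in other tissues, went apart. Ccnd1 was at 3.74 ± 0.63 FPKM in fasted and 6.09 ± 0.836 FPKM in control aortae (SD, n = 6 each, adjusted p = 0.00103). Myc was at 1.4 ± 0.29 FPKM in fasted and 0.593 ± 0.226 FPKM in control aortae (SD, n = 6 each, adjusted p = 0.00148), and its call was lost in its most abundant transcript alone (adjusted p = 0.133). Cdkn1a, a cell cycle inhibitor, rose by 1.24 (adjusted p = 1.28e-06). Pdgfrb, a smooth muscle target, was at 79.1 FPKM in fasted and 65.7 FPKM in control aortae on average (adjusted p = 0.0608). It passed with median-of-ratios scaling (0.29, adjusted p = 0.0497) and without fasted replicate 5 or 6 or control replicate 1 (adjusted p of 0.0252 to 0.0468).

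The arterial endothelial genes were divided, with 6 of 22 higher and 5 lower (50.0%), against 31.7% of all genes tested. Efnb2, the ephrin of arterial endothelium, fell to 23.1 ± 1.34 FPKM in fasted, against 27.0 ± 1.69 FPKM in control aortae (SD, n = 6 each, adjusted p = 0.008). Unc5b, a netrin receptor gene, fell by 0.27 (adjusted p = 0.0047), and with the endothelial covariate the difference was again -0.27 but did not pass (adjusted p = 0.0512). The remaining called genes of the list, outside the rule and given after their values were seen, were Gja5, Nrp1, Nr2f2 and Sema3g. With the endothelial covariate 4 of the 22 passed (19.5% of all genes), among them Efnb2 and Flt1. With the adipocyte covariates 6 passed (21.2% of all genes), among them Efnb2, Unc5b, Flt1, Cxcr4 and Nrp2. Gja5, Nrp1, Nr2f2 and Sema3g thus cannot all have kept their calls in either covariate fit. The arterial gap junction gene Gja5 was at 11.3 ± 1.18 FPKM in fasted and 14.6 ± 2.3 FPKM in control aortae (SD, n = 6 each, adjusted p = 0.0188). Ephb4, the receptor of the ephrin and a venous marker, rose by 0.25 (adjusted p = 0.00534), while Nr2f2, a factor of venous identity, fell by 0.30 (adjusted p = 0.0192). The arterial gene Sema3g, a semaphorin, rose by 0.33 (adjusted p = 0.0376), and the receptor gene Nrp1 fell by 0.29 (adjusted p = 0.0314). Flt1, a VEGF receptor gene, was at 7.09 ± 0.796 FPKM in fasted and 4.72 ± 0.544 FPKM in control aortae (SD, n = 6 each, adjusted p = 4.60e-04). Cxcr4, a chemokine receptor gene, rose by 0.43 (adjusted p = 0.00839) and the semaphorin receptor gene Nrp2 by 0.41 (adjusted p = 0.0157). Gata2, which is in 2 of the lists, rose by 0.46 (adjusted p = 0.0235), a call lost without fasted replicate 2 (adjusted p = 0.0517) and without control replicate 5 (adjusted p = 0.0508). In its most abundant transcript alone Gata2 was at 0.23 (adjusted p = 0.459). Kdr, of this list, and Egfl7, of the ligand list, are also endothelial markers. Across the lists, 9 more of the named genes did not pass with the endothelial covariate (adjusted p of 0.0759 to 0.448), which widens the SE. Of these, Cdk8 (0.29), Numb (0.23) and Dtx1 (0.49) had differences no smaller than without it, and Tle1 (0.37) and Ephb4 (0.22) slightly smaller ones. Cxcr4 (0.34), Nrp2 (0.27), Eps15 (0.16) and Gata2 (0.20) had smaller ones. With the adipocyte covariates 8 more did not pass (adjusted p of 0.0587 to 0.283). Gata2 was larger there (0.54), and Cir1 (0.30), Ephb4 (0.22), Epn2 (0.40), Dtx1 (0.37), Maml2 (0.16), Cdk8 (0.21) and Numb (0.14) were smaller.

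**Figure D5:**
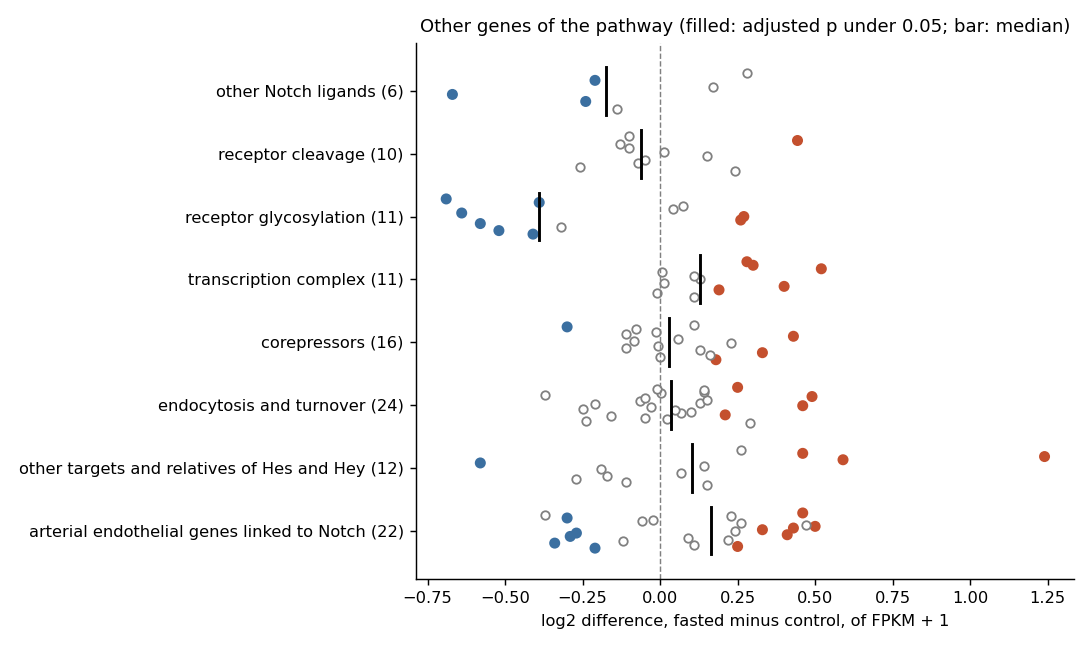
Log2 difference, fasted minus control, of every tested gene of the 8 lists, with the number tested in brackets; each point is a gene, filled where its adjusted p was under 0.05, and bars are medians. The glycosylation list has the lowest median of the 8 lists, -0.39, against -0.024 over all genes.

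The genes most like each member were sought among 11206 genes by Pearson r of the deviations from the group means over the 12 libraries. Notch1 varied most like Epas1 (r = 0.94, Spearman rho = 0.9), an oxygen-regulated transcription factor abundant in endothelium, followed by Anxa3 (0.92) and Dnm1l (0.9). Heyl was closest to Plekhg5 (r = 0.95, rho = 0.91), Nkd1 (0.94), an inhibitor of Wnt signalling, and Nacc2 (0.94), which was also among the 3 genes closest to Hey1 (0.91). Hey1 was closest to Zfp101 (0.92), with Hoxa2 (0.89) as the third gene. Hes1 was closest to Duxbl2 (0.93), Ypel2 (0.91) and Pcgf2 (0.91), and Hey2 to AW209491 (0.92), Mrpl39 (0.9) and Cbwd1 (0.87). Notch3 was closest to Gpr157 (0.9), Ky (0.89) and Zfp248 (0.89), and Notch4 to Tia1, Gpr39 and Yipf6 (0.9 each). Notch2 and Jag1 had the loosest neighbours, Tet2 (0.83), Tns1 (0.83) and Gm527 (0.81) for Notch2 and Prr15 (0.85), 2010315B03Rik (0.85) and Pccb (0.84) for Jag1. With so many genes and 12 libraries, high values arise readily, and they are given as a description.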

How the data were processed

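Poly(A) RNA of 12 aorta samples, 6 per group, was measured by stranded paired-end sequencing, per the labels' protocols. The authors deposited 1 table of FPKM values for 22699 transcripts. FastQC, cutadapt, HISAT2, StringTie and GRCm38 are named, per the submitters' processing notes. The sources used here give no versions, use of strand or annotation. Each listed transcript had a mean of at least 0.5001 FPKM in its higher group, so transcripts below about that level are not analysed here. The listed values of a library summed to between 299588 and 327492 FPKM, which does not show depth, and no counting interval was computed. A few abundant genes can shift all other FPKM values.

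Transcripts were matched to GENCODE M21, with 21493 exact identifiers, 1162 of another version and 44 unmatched, and summed per gene. The 9 measured members each had 1 listed transcript. Two-sided tests were made with limma 3.58.1 under R 4.3.3 (lmFit, then eBayes with trend) on log2(FPKM + 1). They covered every gene that reached 0.5 FPKM in 6 libraries or more. P-values were adjusted by the Benjamini-Hochberg method and called at 0.05. The scripts were tested on simulated data. Marker covariates are mean log2 levels of a marker list. Alternatives were the pseudocount, filter, scaling, library weights, covariates, replicate block, the most abundant transcript alone and leaving out each library. Leaving out fasted replicates 2 and 3 together was added after seeing the data.

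Named were the 10 members, up to 6 genes with the smallest p of each of 8 lists, the 3 genes most like each member, and Rbpj, Adam10, Adam17, Ncstn, Maml1, Lfng, Mfng, Jag2, Dll1, Nrarp, Numb, Fbxw7 and Efnb2 regardless of outcome, beside 1 gene that is not reported here. The text describes some of the listed genes only in counts. The members and lists were chosen with earlier results of these data known. Likeness was sought among genes with a mean of at least 1 FPKM. Promoter sequences and coordinates are from RefSeq on GRCm38.p6, and gene coordinates are from GENCODE, counted from 1.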

Additional observations from a re-analysis of the deposited data

Results flagged for a closer look

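In 150 groups of 6 libraries checked, 9 held a library far from the other 5, and chance alone flags about 1 in 20 groups. None of the 9 measured Notch pathway genes was among them. Fasted replicate 3 had 5.67 FPKM of Adam10, against 17.5 to 20.9 FPKM in the other fasted libraries, and 2.1 FPKM of Fbxw7, against 5.39 to 7.12 FPKM. Fasted replicate 1 had 32.7 FPKM of Hdac1, against 37.1 to 38.4 FPKM in the other fasted libraries, and 1.4 FPKM of Dtx1, against 2.21 to 2.68 FPKM. Control replicate 1 had 12.9 FPKM of Pofut1, against 8.03 to 9.28 FPKM in the other controls, and 5.74 FPKM of Flt1, against 4.11 to 4.68 FPKM. Control replicate 2 had 6.1 FPKM of Kdm5a, against 6.7 to 7.04 FPKM in the other controls. Control replicate 3 had 15.2 FPKM of Adam17, against 1.51 to 5.0 FPKM. The endothelial markers of control replicate 4 summed to 270.0 FPKM, against 184 to 215 FPKM in the other controls, and this library also had the highest Notch1 and Notch4 of the controls.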

How the results depend on the processing

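Notch2 kept its direction and call under every alternative run, and as genes Notch1, Notch3 and Notch4 did so under all but the endothelial covariate (0.17, -0.27 and 0.23); with a filter of 2 FPKM Notch4 was not tested. The Jag1 call was lost with library weights (0.18), the adipocyte (0.19) and endothelial (0.27) covariates and without fasted replicates 2 and 3 (0.18), where Heyl was at 0.11 (adjusted p = 0.557). Leaving out 1 library gave Jag1 0.18 to 0.25, Heyl 0.22 to 0.42, Hes1 -0.26 to -0.094, Notch1 0.31 to 0.40, Notch2 0.21 to 0.25, Notch3 -0.47 to -0.38 and Notch4 0.46 to 0.58. In those fits 3331 to 4168 genes passed, against 3821, with 4 to 5 members, 20 to 26 other pathway genes higher and 11 to 17 lower. With the endothelial covariate 2350 genes, 1 member, 13 other pathway genes higher and 10 lower passed, against 23 and 16. The higher count was 12 with the adipocyte covariates and 15 with the 2 FPKM filter. Med12 turned to -0.13 in its most abundant transcript alone. Calls per list moved by over 1.5 times for ligands (3, then 0 or 1), cleavage (1, then 0), glycosylation (8, then 4), the transcription complex (5, then 3), turnover (4, then 1 or 2), targets (4, then 2) and arterial genes (11, then 6 or 4). The groups share replicate numbers, and the labels do not say whether these pair the libraries. Same-numbered libraries deviated together only weakly (r of -0.00634 to 0.0845, and 1 of 6 matched its own number best). Such a weak relation cannot show that no pairing exists. With a replicate block 3652 genes passed, Jag1 was at 0.21 (adjusted p = 0.0685) and 2 member transcripts passed, against 4: those of Notch1 (adjusted p = 0.0603) and Notch3 (adjusted p = 0.0502) were lost in the test over all transcripts, while both genes kept their calls. Median-of-ratios scaling gave 1974 genes higher and 1946 lower. Isoform shares could give no value, since each measured member had 1 listed transcript. Where the cause of a lost call is not given by fewer samples or genes, the cause was not tested. Depth is unknown, so how far it limits low genes such as Notch4 and Hey1 cannot be given.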
